A study of Mus musculus with 4 samples.

Results

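The genes described here are 30 genes that act in G2 and mitosis, chosen by name among the 51509 genes listed in the deposited table of read counts. All 30 were found and all 30 passed the filter on low counts, among 14684 genes tested. RNA was sequenced from mouse intestinal organoids, epithelial cultures that grow from crypts and keep a dividing compartment beside differentiated cells. The organoids came from wild type C57BL/6 mice aged 8 to 12 weeks and were collected 36 hours after 8 Gy of irradiation. One group had been given SGC-CBP30, a small molecule that binds the bromodomains of the acetyltransferases CBP and p300, and the other had been given vehicle. Each group held 2 libraries. The second SGC-CBP30 library is named SGC-CBP31 in its treatment label and was placed by its title. Both groups were irradiated, and no source used here gives the dose or duration of SGC-CBP30. Nothing says whether replicates were separate cultures or animals, so the p-values reflect only how these libraries vary, which may be technical.

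Entry into mitosis is driven by cyclin-dependent kinase 1 bound to cyclin A or cyclin B, helped by Polo and Aurora kinases. Chromosomes then attach through kinetochores to spindle microtubules, a checkpoint holds the anaphase-promoting complex until all are attached, and a contractile ring divides the cell. Most of these genes are transcribed late in the cell cycle, under the MuvB complex with B-MYB and FOXM1, through promoter elements known as the CHR and the CCAAT box. In the intestine they mark the dividing stem and transit-amplifying cells of the crypt.

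The libraries held 16433117 to 18087250 counts, and the 30 genes took 13596 and 14942 counts in SGC-CBP30 libraries, against 17874 and 15823 in vehicle libraries. Single members had 39 to 2330 counts in a library. Of 8 epithelial markers chosen to check the tissue, all were detected. Their summed level was 8406 to 9044 CPM in SGC-CBP30 libraries and 7196 to 7213 CPM in vehicle libraries (CPM, counts scaled to library size with TMM factors). The keratin genes Krt8, Krt18 and Krt19 carried most of the higher sum, while Cdx1 and Cdx2 were lower in both SGC-CBP30 libraries than in either vehicle library. The 7 mesenchymal markers summed to 1.88 to 3.35 CPM in SGC-CBP30 libraries and 1.19 to 1.47 CPM in vehicle libraries, the 4 endothelial markers to 1.76 to 1.77 and 1.76 to 1.82 CPM, the immune markers to 3.76 to 3.94 and 5.26 to 7.87 CPM, and the neuronal and glial markers, among which Elavl4 and Sox10 were at 0, to 1.18 to 2.22 and 2.38 to 2.57 CPM.

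As a group the G2 and mitosis genes were lower with SGC-CBP30. Of the 30 members 17 fell, 0 rose and 13 did not pass the threshold (adjusted p under 0.05 by the quasi-likelihood test of edgeR, with Benjamini-Hochberg adjustment over all genes tested), where 16.3% of all genes tested were called lower and 13.6% higher. No member was higher at an unadjusted p under 0.05 in the edgeR fit either (0 of 30), where 18.7% of all genes tested were. DESeq2 likewise called 0 members higher, where it called 9.18% of all genes higher. Their median log2 fold change (SGC-CBP30 over vehicle) was -0.35, or -21.4%, beside a median of 0.0096 over all genes tested. The summed level of the 30 genes was 799 and 851 CPM in SGC-CBP30 libraries, against 1012 and 992 CPM in vehicle libraries. In 25 members both SGC-CBP30 libraries lay below both vehicle libraries, as in 31% of all genes tested, and in 1 member, Foxm1, both lay above, as in 32.1% of genes. The point estimates ran from -0.57 for Birc5 to 0.082 for Foxm1 and 29 of 30 were negative, although Mki67 and Cenpf turned positive with library totals as the scale (0.021 and 0.0078). In bulk RNA, fewer cells in mitosis and less RNA per cell cannot be told apart.

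The number of members called depended on the libraries and the tool, while no alternative called a member higher. The number lower was 8 without vehicle replicate 1 and 10 without vehicle replicate 2, with 11.5% and 10.8% of all genes called lower and 8.04% and 7.98% higher. It was 13 without SGC-CBP30 replicate 1 and 17 without replicate 2, with 15.7% and 15.9% of all genes lower and 11.9% and 13.6% higher. DESeq2 called 11 members lower, with 13.4% of all genes lower and 9.18% higher. With library totals as the scale 15 members were lower, with 13.1% of all genes lower and 19.8% higher, and with RLE factors 17, with 16.5% lower and 13.5% higher. It was 16 with no filter on low counts (8.65% of genes lower, 8.11% higher) and 18 with a filter of at least 50 counts in 2 libraries (20.3% lower, 16.1% higher). Ccnb1, Ube2c, Birc5, Ccna2 and Ect2, 5 of the 30, are lower at an adjusted p under 0.05 in the authors' deposited table, as are 6.91% of the genes that have an adjusted p there, and 0 are higher. Ccnb1, Birc5 and Ube2c were called in the fit on all 4 libraries and in all 10 alternatives, and the other 14 called members lost the call in at least 1 alternative.

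**Figure D1:**
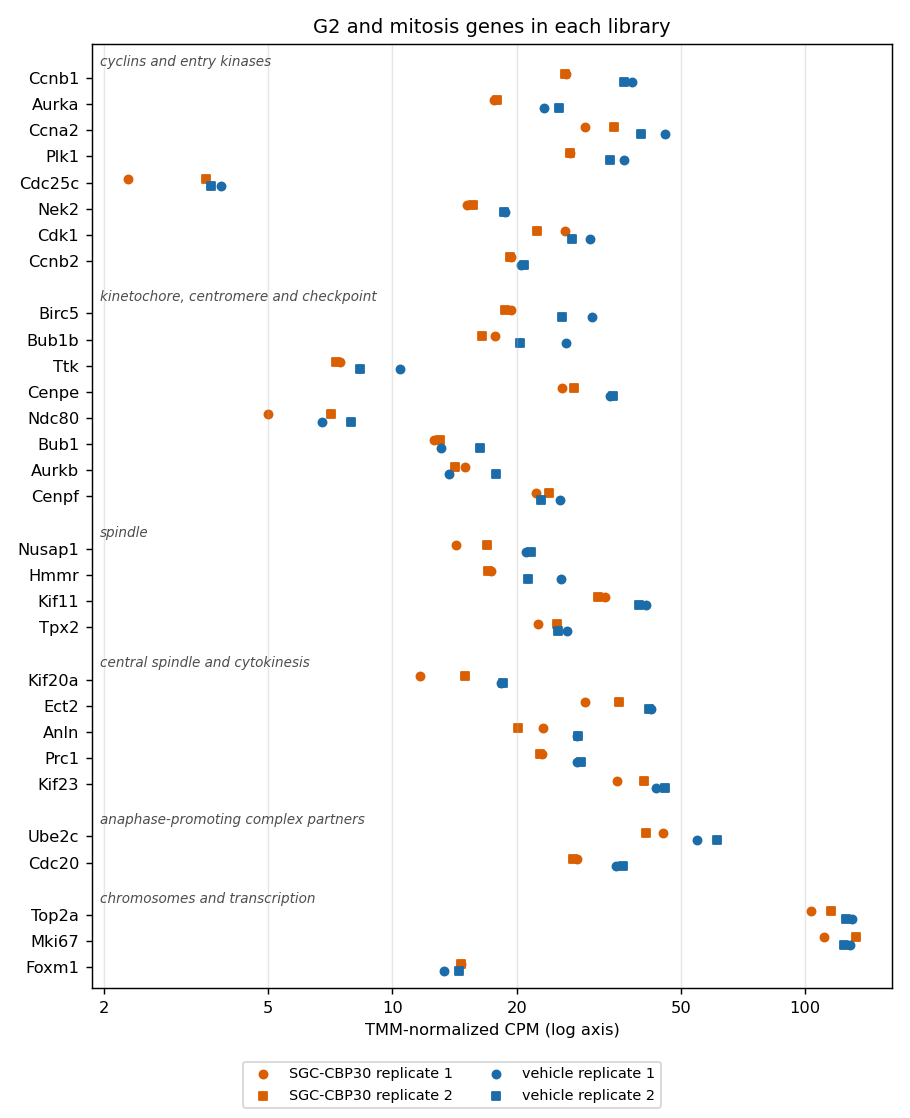
Level of each of the 30 genes in each library, in TMM-normalized CPM on a log axis, grouped by role; orange points are the 2 SGC-CBP30 libraries and blue points the 2 vehicle libraries. Both orange points lie left of both blue points in 25 genes, and Foxm1 is the gene where both lie to the right.

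**Figure D2:**
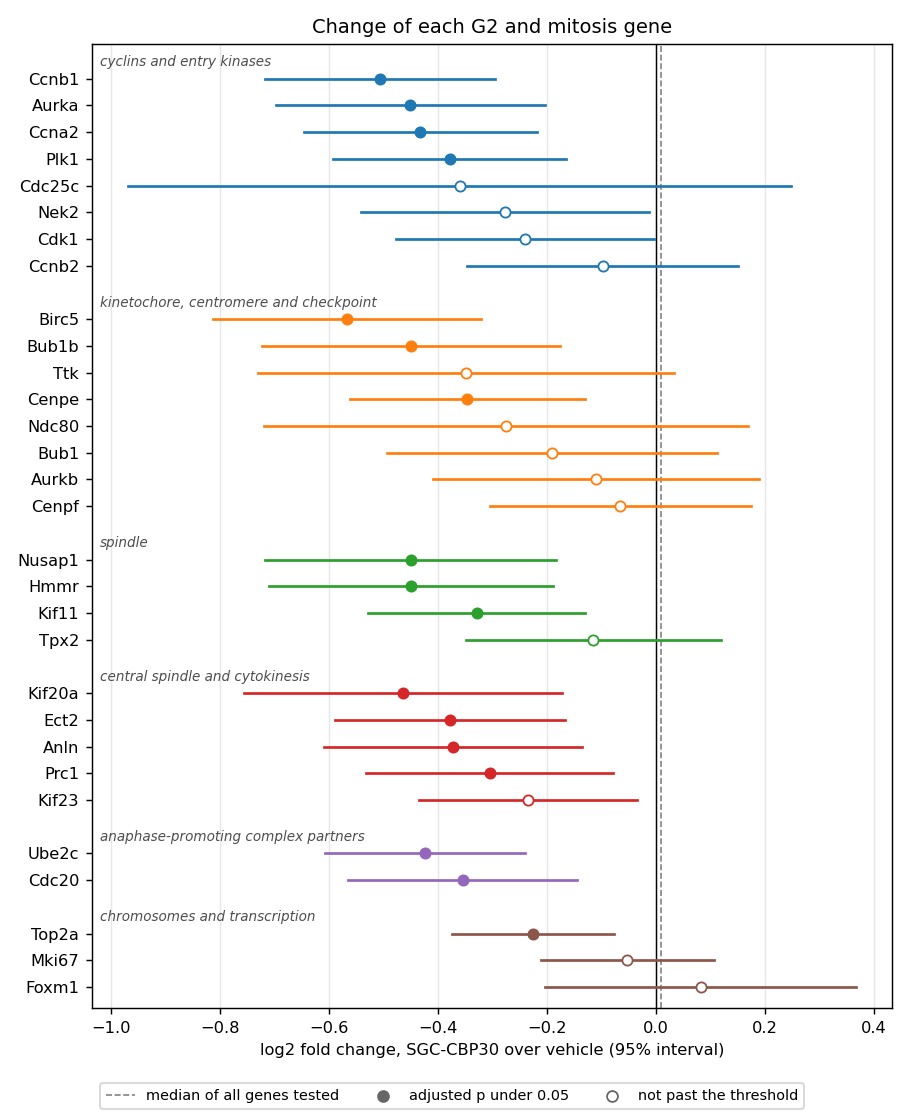
Log2 fold change, SGC-CBP30 over vehicle, for each gene with its 95% interval from the edgeR fit, grouped by role; filled points have an adjusted p under 0.05. The 17 filled points lie between -0.57 and -0.23, and the median of all genes tested (dashed) is at 0.0096.

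Levels between genes are compared per length, with the deposited FPKM. Ube2c had the highest level of the 30 genes, 16.5 ± 1.07 FPKM in SGC-CBP30 and 22.2 ± 1.85 FPKM in vehicle libraries (SD, n = 2 each). It was followed in vehicle libraries by Cdc20 (18.9 ± 0.526 FPKM), Plk1 (15.9 ± 0.804), Top2a (14.1 ± 0.280), Ccnb2 (13.4 ± 0.245) and Mki67 (12.5 ± 0.266). The lowest was Ndc80, at 0.928 ± 0.229 FPKM in SGC-CBP30 and 1.13 ± 0.136 FPKM in vehicle libraries. Across the 30 genes, which share the same 4 libraries, the log2 fold change correlated with the log2 mean CPM at 0.060 (Pearson) and -0.044 (Spearman), and with the log2 gene length at 0.30 (Pearson) and 0.42 (Spearman), given as a description.

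Counts of single role classes, here and below, are few genes each, where 16.3% of all genes tested were called lower and 13.6% higher. With DESeq2, which called 13.4% of all genes lower, the number lower was 1 for kinetochores, centromeres and checkpoint. It was 1 for central spindle and cytokinesis, 0 for chromosomes and transcription, and unchanged for the other classes. Of the 8 cyclins and mitotic entry regulators, 4 fell and 4 did not pass the threshold, with a median log2 fold change of -0.37. Ccnb1 (ENSMUSG00000041431, chromosome 13, 100778650 to 100786570 on GRCm38, minus strand) encodes cyclin B1, the main partner of the mitotic kinase. It had 26.3 and 26.2 CPM in SGC-CBP30 libraries, against 38.1 and 36.4 CPM in vehicle libraries. The groups were far apart beside the spread within each, with a log2 fold change of -0.51 ± 0.10 (SE; edgeR adjusted p = 0.000445). Ccnb2, which encodes the related cyclin B2, had 19.3 and 19.3 CPM in SGC-CBP30 libraries, against 20.4 and 20.9 CPM in vehicle libraries. Its groups did not overlap either, but the difference was small, -0.10 ± 0.12 (95% interval -0.35 to 0.15), and not past the threshold. Ccna2, the gene of cyclin A2, which acts in S phase and G2, had 29.3 and 34.3 CPM with SGC-CBP30, against 45.7 and 40.1 CPM with vehicle, and a log2 fold change of -0.43 ± 0.10 (edgeR adjusted p = 0.00244). It shares 510 exon bases with Exosc9 on the opposite strand, which itself fell by 0.59 ± 0.12 on the log2 scale, and without stated strand use the reads of this overlap cannot be assigned.

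Of the 4 kinase genes of mitotic entry, Aurka and Plk1 fell, and Cdk1 and Nek2 did not pass the threshold. Aurka, the gene of the centrosomal Aurora kinase A, had 17.6 and 17.9 CPM in SGC-CBP30 libraries, against 23.3 and 25.4 CPM in vehicle libraries, a log2 fold change of -0.45 ± 0.12. Plk1, the gene of Polo-like kinase 1, which activates Cdk1 and builds the spindle, had 26.981 and 26.997 CPM with SGC-CBP30, against 36.4 and 33.7 CPM with vehicle, a log2 fold change of -0.38 ± 0.10. Both fell (edgeR adjusted p = 0.00562 for Aurka and adjusted p = 0.00691 for Plk1), and in both the lower vehicle library stood above the higher SGC-CBP30 library. Cdk1 itself had 26.2 and 22.4 CPM in SGC-CBP30 libraries, against 30.1 and 27.2 CPM in vehicle libraries, and its log2 fold change of -0.24 ± 0.11 did not pass the threshold (edgeR adjusted p = 0.122). Nek2, a kinase gene of centrosome separation, had -0.28 ± 0.13 and Cdc25c, the gene of a phosphatase that activates Cdk1, -0.36 ± 0.29 (95% interval -0.97 to 0.25), neither past the threshold. Cdc25c had the fewest counts of the 30 genes, 2.29 and 3.53 CPM in SGC-CBP30 libraries, against 3.85 and 3.64 CPM in vehicle libraries. The call was lost without vehicle replicate 1 for Ccna2 (edgeR adjusted p = 0.0688; 9.77e-06 to 0.0688 over its alternatives) and Plk1 (adjusted p = 0.102; 0.00235 to 0.102), and without vehicle replicate 2 for Aurka (adjusted p = 0.0737; 0.00149 to 0.0737). Cdk1 passed the threshold without SGC-CBP30 replicate 1 (log2 fold change -0.36, edgeR adjusted p = 0.0301; 0.0301 to 0.509).

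Of the 8 genes of kinetochores, centromeres and the spindle checkpoint, 3 fell and 5 did not pass the threshold, with a median log2 fold change of -0.31. Birc5 (ENSMUSG00000017716, chromosome 11, 117849251 to 117855743, plus strand) encodes survivin, a subunit of the chromosomal passenger complex. It had 19.3 and 18.7 CPM in SGC-CBP30 libraries, against 30.5 and 25.8 CPM in vehicle libraries. This was the largest fall among the 30 genes on all 4 libraries, -0.57 ± 0.12 (edgeR adjusted p = 0.000697). Aurkb, the kinase of the same complex, had 15.0 and 14.2 CPM with SGC-CBP30, against 13.7 and 17.9 CPM with vehicle. Its groups overlapped, and its log2 fold change of -0.11 ± 0.15 (95% interval -0.41 to 0.19) was not past the threshold and was 0.094 without vehicle replicate 2.

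Bub1b, the gene of the checkpoint protein BubR1, had 17.8 and 16.5 CPM in SGC-CBP30 libraries, against 26.3 and 20.4 CPM in vehicle libraries, a log2 fold change of -0.45 ± 0.13 (edgeR adjusted p = 0.0118). Cenpe, the gene of a kinetochore motor that aligns chromosomes, had 25.7 and 27.6 CPM with SGC-CBP30, against 33.6 and 34.2 CPM with vehicle, a log2 fold change of -0.35 ± 0.10 (edgeR adjusted p = 0.0134). The vehicle libraries lay far apart in Bub1b and close together in Cenpe. The checkpoint kinase genes Ttk (-0.35 ± 0.19) and Bub1 (-0.19 ± 0.15) and Ndc80 (-0.27 ± 0.22), whose protein binds microtubules, were not past the threshold. Cenpf, which encodes a large protein of the outer kinetochore, had 22.3 and 23.9 CPM with SGC-CBP30, against 25.5 and 22.9 CPM with vehicle. Its groups overlapped and its log2 fold change was -0.07 ± 0.12, or 0.017 without vehicle replicate 1. The Bub1b call was lost without vehicle replicate 1 (log2 fold change -0.25, edgeR adjusted p = 0.319; 0.000958 to 0.319 over its alternatives). The Cenpe call was lost without vehicle replicate 1 (edgeR adjusted p = 0.0585) and replicate 2 (adjusted p = 0.0933; 0.00619 to 0.0933), and both calls were lost narrowly with DESeq2 (adjusted p = 0.0501 for Bub1b and 0.0503 for Cenpe).

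Of the 4 genes of spindle assembly, 3 fell and 1 did not pass the threshold. Nusap1, whose protein bundles microtubules near chromosomes, had 14.3 and 17.0 CPM in SGC-CBP30 libraries, against 21.1 and 21.6 CPM in vehicle libraries, a log2 fold change of -0.45 ± 0.13 (edgeR adjusted p = 0.00967). Hmmr, the gene of a spindle pole protein also known as a hyaluronan receptor, had 17.3 and 17.1 CPM with SGC-CBP30, against 25.7 and 21.3 CPM with vehicle, a log2 fold change of -0.45 ± 0.13 (edgeR adjusted p = 0.00830). In both, no SGC-CBP30 library reached a vehicle library. Kif11, the kinesin gene whose product pushes the spindle poles apart, had 32.7 and 31.6 CPM with SGC-CBP30, against 41.1 and 39.6 CPM with vehicle, a log2 fold change of -0.33 ± 0.10 (edgeR adjusted p = 0.0112). Tpx2, whose product activates Aurora A on the spindle, had 22.6 and 25.1 CPM with SGC-CBP30, against 26.4 and 25.1 CPM with vehicle. The higher SGC-CBP30 library nearly equalled the lower vehicle library, and the log2 fold change of -0.11 ± 0.11 (95% interval -0.35 to 0.12) was not past the threshold. The Nusap1 call was lost without SGC-CBP30 replicate 1 (edgeR adjusted p = 0.0888; 0.0016 to 0.0888 over its alternatives), the Hmmr call without vehicle replicate 1 (adjusted p = 0.188; 0.00209 to 0.188), and the Kif11 call without vehicle replicate 1 (adjusted p = 0.108; 0.00545 to 0.108) and replicate 2 (adjusted p = 0.0521).

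Of the 5 genes of the central spindle and cytokinesis, 4 fell and 1 did not pass the threshold. Kif20a, a kinesin gene of the central spindle, had 11.6 and 15.0 CPM in SGC-CBP30 libraries, against 18.3 and 18.5 CPM in vehicle libraries, a log2 fold change of -0.46 ± 0.14 (edgeR adjusted p = 0.0145). The SGC-CBP30 libraries differed more from each other than the vehicle libraries did. Kif20a shares 1271 exon bases with Cdc23 on the opposite strand, whose own log2 fold change was -0.02 ± 0.12. Ect2, the gene of the exchange factor that activates RhoA at the cell equator, had 29.3 and 35.4 CPM with SGC-CBP30, against 42.4 and 41.8 CPM with vehicle, a log2 fold change of -0.38 ± 0.10 (edgeR adjusted p = 0.00651). Anln, the gene of the contractile ring scaffold anillin, had 23.2 and 20.2 CPM with SGC-CBP30, against 28.0 and 28.2 CPM with vehicle, a log2 fold change of -0.37 ± 0.11 (edgeR adjusted p = 0.0153). In these genes too the vehicle libraries lay within 1 CPM of each other. Prc1, whose product cross-links the microtubules of the central spindle, had 23.0 and 22.8 CPM with SGC-CBP30, against 28.0 and 28.6 CPM with vehicle, a log2 fold change of -0.30 ± 0.11 (edgeR adjusted p = 0.0381).

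Kif23, the kinesin gene of the centralspindlin complex, had 34.9 and 40.7 CPM in SGC-CBP30 libraries, against 43.4 and 45.6 CPM in vehicle libraries. Its log2 fold change of -0.23 ± 0.10 (95% interval -0.43 to -0.04) missed the threshold (edgeR adjusted p = 0.0703) and passed it without SGC-CBP30 replicate 2 (adjusted p = 0.00546; 0.00546 to 0.372 over its alternatives), with the filter of at least 50 counts (adjusted p = 0.0486) and with the replicate block (adjusted p = 0.0429). Without SGC-CBP30 replicate 1 the calls of Kif20a (log2 fold change -0.30, edgeR adjusted p = 0.173; 0.000738 to 0.173) and Ect2 (log2 fold change -0.25, adjusted p = 0.0660; 4.0e-05 to 0.0660) were lost. The Anln call was lost without SGC-CBP30 replicate 2 (edgeR adjusted p = 0.113; 0.00276 to 0.113) and when either vehicle library was left out (adjusted p = 0.0589 without the first and 0.0741 without the second). The Prc1 call was lost whichever library was left out (edgeR adjusted p 0.0622 and 0.0817 without SGC-CBP30 replicates 1 and 2, 0.120 and 0.189 without vehicle replicates 1 and 2; 0.0262 to 0.189 over its alternatives). DESeq2 called none of Kif20a (adjusted p = 0.0650), Anln (adjusted p = 0.0595) and Prc1 (adjusted p = 0.122), all 3 with log2 fold changes between -0.47 and -0.31 there. The Prc1 call was also lost with library totals (edgeR adjusted p = 0.111) and with no filter on low counts (edgeR adjusted p = 0.0595).

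Both partners of the anaphase-promoting complex, the ubiquitin ligase whose activity ends mitosis, fell. Ube2c (ENSMUSG00000001403, chromosome 2, 164769898 to 164778822, plus strand) encodes a ubiquitin-conjugating enzyme of the complex. It had 45.1 and 41.2 CPM in SGC-CBP30 libraries, against 54.7 and 61.2 CPM in vehicle libraries, a log2 fold change of -0.42 ± 0.09 (edgeR adjusted p = 0.000696). Cdc20 encodes an activator of the complex, the target of the spindle checkpoint. It had 28.0 and 27.5 CPM with SGC-CBP30, against 34.9 and 36.1 CPM with vehicle, a log2 fold change of -0.35 ± 0.10 (edgeR adjusted p = 0.00976). The groups of both genes were clear of each other. Outside the 30, the coactivator gene Fzr1 (0.03 ± 0.08) and the conjugating enzyme gene Ube2s (0.18 ± 0.09) of the same complex did not fall. The Cdc20 call was lost without vehicle replicate 2 (edgeR adjusted p = 0.0922; 0.00424 to 0.0922 over its alternatives).

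Of the 3 genes of chromosomes and transcription 1 fell and 2 did not pass the threshold. Mki67 (ENSMUSG00000031004, chromosome 7, 135689784 to 135716361, minus strand), which encodes Ki-67, the common marker of dividing cells and a coat protein of mitotic chromosomes, had 111 and 133 CPM in SGC-CBP30 libraries, against 129 and 124 CPM in vehicle libraries. The groups overlapped: the second SGC-CBP30 library was the highest of the 4 and the first the lowest. The log2 fold change was -0.05 ± 0.08 (95% interval -0.21 to 0.11, edgeR adjusted p = 0.666). It was 0.068 without SGC-CBP30 replicate 1 and -0.19 without replicate 2, where it passed the threshold (edgeR adjusted p = 0.0207; 0.0207 to 0.910 over its alternatives). Top2a, the gene of the topoisomerase that untangles sister chromosomes, had 103 and 115 CPM with SGC-CBP30, against 130 and 126 CPM with vehicle. Its groups were separate and its log2 fold change of -0.23 ± 0.07 passed the threshold (edgeR adjusted p = 0.0188). That call was lost without SGC-CBP30 replicate 1 (log2 fold change -0.15, adjusted p = 0.0787), without vehicle replicate 1 (adjusted p = 0.220; 4.51e-05 to 0.220) or 2 (adjusted p = 0.119), with library totals (adjusted p = 0.111) and with DESeq2 (adjusted p = 0.0503). Foxm1, the gene of the transcription factor that drives many of the other members, had 14.7 and 14.7 CPM with SGC-CBP30, against 13.3 and 14.5 CPM with vehicle. Its log2 fold change was 0.08 ± 0.14 (95% interval -0.20 to 0.37), not past the threshold, and was positive in all 10 alternatives.

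**Figure D3:**
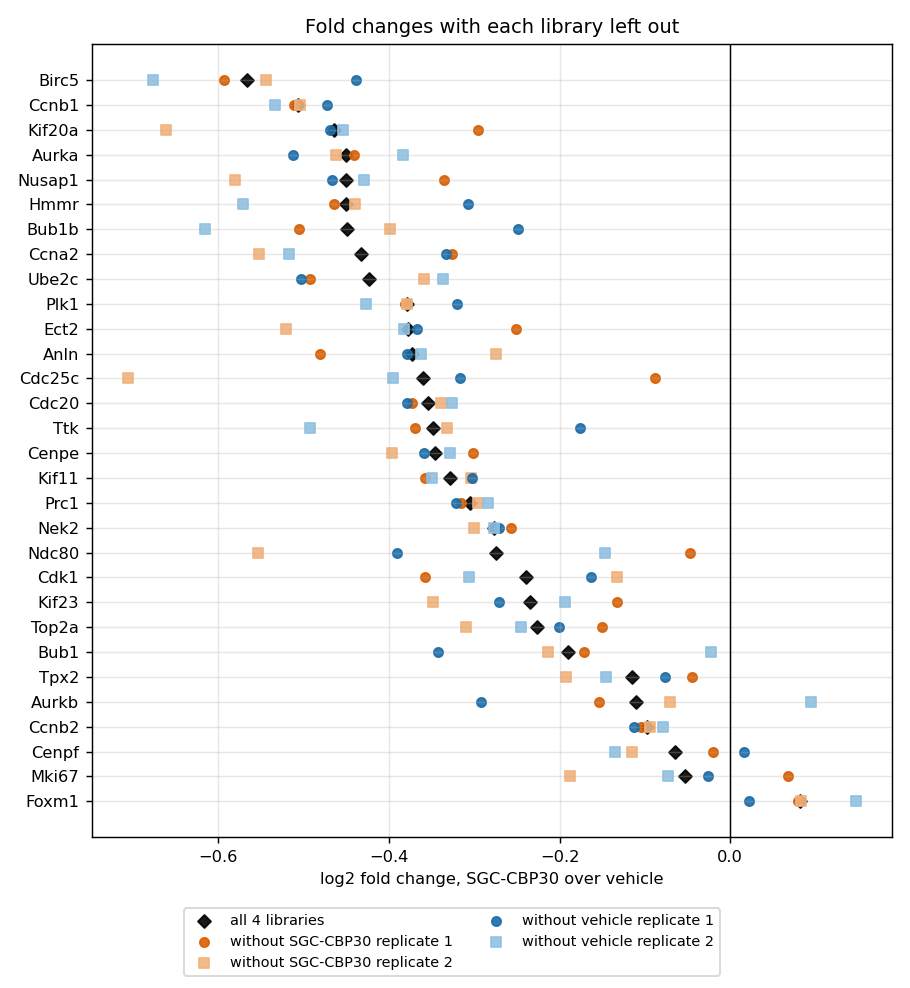
Log2 fold change of each gene with all 4 libraries (black) and with each library left out in turn (orange, an SGC-CBP30 library left out; blue, a vehicle library left out). Apart from Foxm1, positive throughout, points right of 0 are those of Mki67 (0.068), Cenpf (0.017) and Aurkb (0.094), each with 1 library left out.

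Ratios between genes of 1 library do not depend on how libraries are scaled, so each member was also set against Mki67. Of the 30 members only Foxm1 had a higher log2 fold change than Mki67. Most ratios were therefore bound to be lower with SGC-CBP30 by the choice of Mki67, and they are no separate evidence of a fall. Per 100 Mki67 counts Ccnb1 had 23.7 and 19.7 counts in SGC-CBP30 libraries, against 29.6 and 29.3 in vehicle libraries. Birc5 had 17.4 and 14.1 counts per 100 Mki67 counts with SGC-CBP30, against 23.7 and 20.8 with vehicle, and Top2a 92.9 and 87.0, against 101 and 101. In 20 of the other 29 members both SGC-CBP30 ratios were below both vehicle ratios, as in 22.4% of all genes tested, in 0 both were above, and in 9 they overlapped. Ccnb2 was among the 9, with 17.4 and 14.5 counts per 100 Mki67 counts in SGC-CBP30 libraries and 15.9 and 16.8 in vehicle libraries. With 2 libraries against 2 an exact permutation test of any such ratio cannot give a two-sided p below 0.333, and all 29 ratios share the Mki67 counts.

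Promoters were compared because the members are textbook cases of shared late cell cycle control. RefSeq promoter windows on GRCm38.p6, from 250 bases before to 50 after the transcription start, were matched by symbol for 24 of the 30 genes; Ccna2, Cdc25c, Aurkb, Tpx2, Kif20a and Foxm1 were not matched. For the 2 genes with 2 windows the first listed was used. The windows shown are those of Ccnb1 (chr13:100786437-100786736, minus strand), Birc5 (chr11:117848987-117849286, plus strand) and Ube2c (chr2:164769679-164769978, plus strand), whose calls held in all 10 alternatives, and of Ccnb2 (chr9:70421505-70421804, minus strand) and Mki67 (chr7:135716330-135716629, minus strand), which did not pass the threshold. Each is given 5′ to 3′ on the strand of the gene, with the CHR letters TTTGAA and the box CCAAT in capitals on either strand (TTCAAA and ATTGG in reverse).
Ccnb1: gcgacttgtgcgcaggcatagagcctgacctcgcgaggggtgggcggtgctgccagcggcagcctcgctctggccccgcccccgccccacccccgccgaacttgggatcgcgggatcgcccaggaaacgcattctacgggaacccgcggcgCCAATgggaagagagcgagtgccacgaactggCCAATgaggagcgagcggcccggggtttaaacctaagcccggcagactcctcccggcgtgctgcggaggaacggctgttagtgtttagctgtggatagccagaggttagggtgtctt
Birc5: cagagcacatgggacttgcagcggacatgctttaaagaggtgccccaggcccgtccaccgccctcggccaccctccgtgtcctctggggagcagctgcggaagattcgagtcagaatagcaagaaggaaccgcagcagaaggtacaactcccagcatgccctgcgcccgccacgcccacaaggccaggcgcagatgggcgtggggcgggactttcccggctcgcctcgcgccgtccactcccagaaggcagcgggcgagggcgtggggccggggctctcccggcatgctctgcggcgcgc
Ube2c: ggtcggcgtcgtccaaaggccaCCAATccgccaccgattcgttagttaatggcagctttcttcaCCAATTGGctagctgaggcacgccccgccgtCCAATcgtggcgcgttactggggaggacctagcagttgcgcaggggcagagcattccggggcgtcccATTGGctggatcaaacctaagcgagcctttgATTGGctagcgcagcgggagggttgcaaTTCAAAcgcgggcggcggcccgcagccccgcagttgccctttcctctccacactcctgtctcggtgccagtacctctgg
Ccnb2: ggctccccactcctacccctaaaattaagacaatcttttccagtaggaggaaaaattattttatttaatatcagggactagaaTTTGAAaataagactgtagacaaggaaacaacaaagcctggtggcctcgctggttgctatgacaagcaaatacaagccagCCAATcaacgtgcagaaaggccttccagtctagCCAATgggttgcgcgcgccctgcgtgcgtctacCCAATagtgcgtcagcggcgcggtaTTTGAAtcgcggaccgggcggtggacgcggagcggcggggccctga
Mki67: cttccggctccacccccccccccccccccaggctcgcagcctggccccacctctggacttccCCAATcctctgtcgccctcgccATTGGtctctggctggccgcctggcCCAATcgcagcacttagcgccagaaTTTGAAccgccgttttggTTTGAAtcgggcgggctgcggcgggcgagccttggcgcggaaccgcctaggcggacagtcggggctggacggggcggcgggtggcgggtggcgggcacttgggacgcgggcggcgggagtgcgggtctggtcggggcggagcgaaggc

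The CHR letters TTTGAA, on either strand, were found in the windows of 18 of 24 members (75%), where 17.9% of all 32851 windows and 12.2% of the 13229 windows of tested genes hold them. Within 50 bases on either side of the start, 17 of 24 members (70.8%) had them, against 4.94% of all windows. CCAAT on either strand was found in 20 of 24 members (83.3%), against 37.4% of all windows, and both motifs in 16 (66.7%), against 6.95%. Matches overlapped in 1 member, Ube2c, where CCAAT and its reverse share letters. Ccnb1 had CCAAT at -99 and -67, in bases from the start, and no TTTGAA in the window, and the Birc5 window held neither. Ccnb2 had TTTGAA at -167 and 4 with 3 CCAAT boxes between, and Ube2c had the reverse of TTTGAA at -29 and 6 CCAAT matches upstream of it, and Mki67 had TTTGAA at -116 and -98 and 3 CCAAT matches. Members called lower occurred with and without the letters. The 18 with TTTGAA had a median log2 fold change of -0.34 with 11 called lower, and the 6 without it -0.40 with 4 called lower. Of all genes tested 16.3% were called lower, and that share was not counted for tested genes with or without TTTGAA. A match is a description of letters and not a measured binding site. Only the spelling TTTGAA was searched, so a window without it was not shown to lack a CHR.

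**Figure D4:**
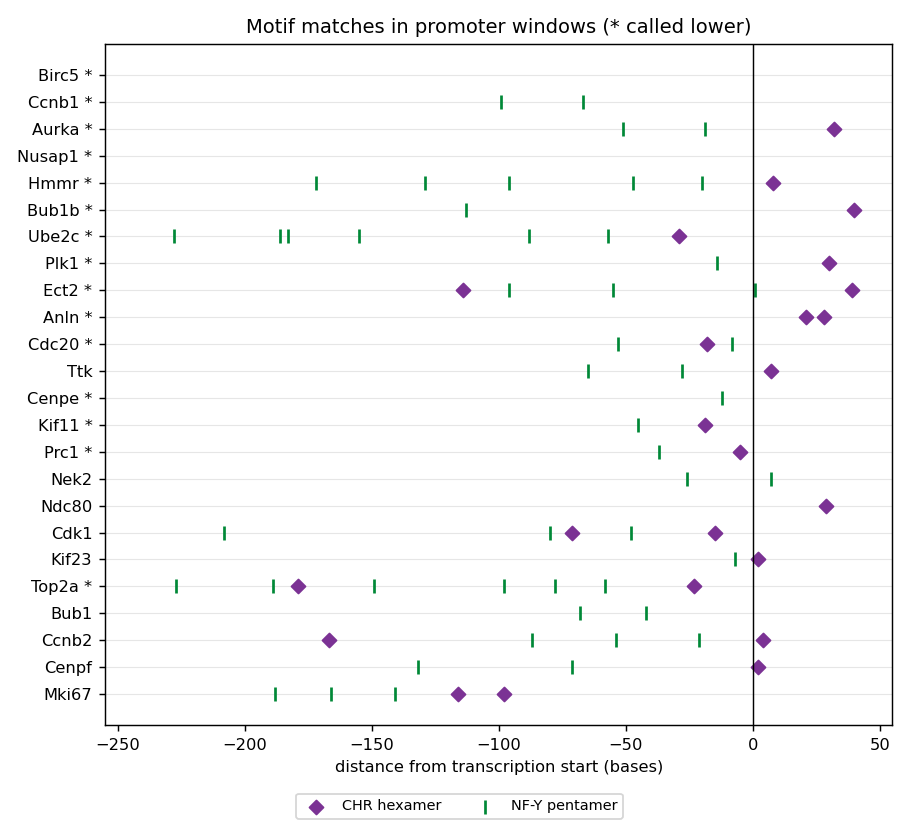
Position of the CHR hexamer TTTGAA (diamonds) and the NF-Y pentamer of the CCAAT box (ticks), on either strand, in the promoter windows of 24 members. Positions are in bases from the transcription start. Genes run from the lowest to the highest log2 fold change and an asterisk marks those called lower. Hexamers of 17 members lie within 50 bases of the start, and members with and without one occur among those called lower.

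Other genes of the same processes were read from 8 lists, 136 genes in all, of which 135 were tested. In these, 30 fell, 9 rose and 96 did not pass the threshold, with a median log2 fold change of -0.14, where 16.3% of all genes tested were called lower and 13.6% higher. Those counts were 18 lower and 15 higher with library totals (13.1% and 19.8% of all genes), 16 and 4 without vehicle replicate 1 (11.5% and 8.04%), 21 and 5 without vehicle replicate 2 (10.8% and 7.98%), and 16 and 6 with DESeq2 (13.4% and 9.18%). The counts of single lists below are few genes each and are to be read against these shares. Of 13 further entry regulators 6 fell and 0 rose (median -0.36), among them Cks2, the gene of a small Cdk1 partner (-0.58 ± 0.13), the phosphatase gene Cdc25a (-0.33 ± 0.08) and Wee1 (-0.47 ± 0.11), whose kinase holds Cdk1 inactive. Cks2 had 13.8 and 13.8 CPM in SGC-CBP30 libraries, against 21.01 and 20.24 CPM in vehicle libraries. The regulators that fell thus include an activator and an inhibitor of Cdk1.

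Of 30 further kinetochore and checkpoint genes 4 fell and 1 rose (median -0.15), which for the falls is a smaller share than the 16.3% of all genes. Knl1, the scaffold on which the Bub kinases sit, had 13.6 and 16.9 CPM in SGC-CBP30 libraries, against 25.3 and 25.8 CPM in vehicle libraries, a log2 fold change of -0.74 ± 0.13. Zwilch fell by 0.61 ± 0.15 on the log2 scale. Zwint, whose protein links Knl1 to the checkpoint complex that holds Zwilch, went the other way: it had 95.2 and 89.8 CPM with SGC-CBP30, against 54.3 and 58.7 CPM with vehicle, a log2 fold change of 0.71 ± 0.08 (edgeR adjusted p = 9.32e-08) that was called in all 10 alternatives. Of 20 further spindle and centrosome genes 6 fell and 1 rose (median -0.18), with 2 lower by DESeq2, 3 lower with library totals or without either vehicle library, and 0 higher with DESeq2 or without either vehicle library or SGC-CBP30 replicate 2. Among those that fell were the kinesin gene Kif15 (-0.79 ± 0.12), Ckap2 (-0.43 ± 0.11) and Plk4 (-0.47 ± 0.14), whose kinase starts centriole duplication. Kif15 had 16.3 and 18.2 CPM with SGC-CBP30, against 30.4 and 29.3 CPM with vehicle. Of 8 further cytokinesis genes 3 fell and 2 rose (median -0.16): the kinase gene Rock2 (-0.50 ± 0.07) and the abscission gene Cep55 (-0.58 ± 0.16) fell, and Rhoa rose (0.30 ± 0.06). The number higher was 0 when vehicle replicate 1 was left out, and 1 with DESeq2 and when vehicle replicate 2 or SGC-CBP30 replicate 2 was left out. Of 15 genes of condensin, cohesin and separase 4 fell and 0 rose (median -0.25), the condensin genes Ncapd3 (-0.57 ± 0.10), Ncaph (-0.32 ± 0.11) and Ncapg (-0.36 ± 0.13) with the smallest p. That count was 1 with library totals, with DESeq2, without SGC-CBP30 replicate 1 and without vehicle replicate 1, 2 without vehicle replicate 2 and 7 without SGC-CBP30 replicate 2.

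Of 15 genes listed for the anaphase-promoting complex itself, 0 fell and 3 rose (median 0.086), where 13.6% of all genes were called higher. The list holds subunits and also the coactivator gene Fzr1 (0.03 ± 0.08) and the conjugating enzyme gene Ube2s (0.18 ± 0.09), neither past the threshold. The 3 that rose were Anapc2 (0.31 ± 0.07), Anapc4 (0.37 ± 0.10) and Cdc27 (0.32 ± 0.09). Without SGC-CBP30 replicate 1 there were 1 lower and 5 higher, and 5 were higher with library totals. The number higher was 2 when SGC-CBP30 replicate 2 or vehicle replicate 1 was left out, and 1 when vehicle replicate 2 was left out. The log2 fold change of Cdc27 was 0.16 without SGC-CBP30 replicate 2 and 0.45 without replicate 1. Most subunits of the complex are made throughout the cell cycle. Of 19 MuvB, MYB and E2F genes 5 fell and 0 rose (median -0.20), with E2f2 (-0.35 ± 0.10), the repressor gene E2f8 (-0.44 ± 0.15) and Tfdp2 (-0.20 ± 0.07) of smallest p. That count was 1 lower with library totals, with DESeq2 and without SGC-CBP30 replicate 1 or either vehicle library, 2 with no filter and 9 without SGC-CBP30 replicate 2, and 1 gene was higher with library totals and without SGC-CBP30 replicate 1. E2f8 was at -0.28 without SGC-CBP30 replicate 1. Of 15 tested CDK inhibitor and G1 genes 2 fell and 2 rose (median 0.014). The number higher was 3 with library totals or without SGC-CBP30 replicate 2, and 1 with DESeq2 and without SGC-CBP30 replicate 1 or vehicle replicate 1. The cyclin D genes differed in call. Ccnd3 had 55.2 and 55.7 CPM in SGC-CBP30 libraries, against 34.4 and 31.3 CPM in vehicle libraries (0.76 ± 0.09), and Ccnd1 had 84.3 and 77.1 CPM, against 103 and 101 CPM (-0.34 ± 0.07). Ccnd2, named after its values were seen, had 339 and 376 CPM in SGC-CBP30 libraries, against 374 and 355 CPM in vehicle libraries, and its log2 fold change of -0.03 ± 0.06 did not pass the threshold (edgeR adjusted p = 0.802). Cdkn2b, the gene of a CDK4 and CDK6 inhibitor, fell (-0.55 ± 0.08). Cdkn1b, another CDK inhibitor gene, named after its values were seen, rose (0.32 ± 0.10, edgeR adjusted p = 0.0170). DESeq2 called only Ccnd3 of this list higher. The inhibitor genes Cdkn1a, Cdkn1c, Cdkn2c and Cdkn2d did not pass the threshold. With all 4 libraries in the fit, DESeq2 ended the calls of Plk4, Ncaph, Ncapg, E2f8 and Tfdp2. Library totals ended those of Ncaph, Ncapg, E2f8 and Tfdp2, and no filter those of Ncapg and Tfdp2. Among the called genes named from these lists, Cdkn1b aside, Cks2, Wee1, Zwint, Knl1, Zwilch, Kif15, Rock2, Ncapd3, Ccnd3, Cdkn2b and Ccnd1 were called in all 10 alternatives. Left-out libraries ended the other calls: without vehicle replicate 1 those of Cdc25a, Plk4, Rhoa, Ncaph, Ncapg, Anapc2, E2f2 and Tfdp2, without vehicle replicate 2 those of Ckap2, Ncapg, Anapc4, Cdc27, E2f8 and Tfdp2, without SGC-CBP30 replicate 1 those of Ncaph, Ncapg, E2f8 and Tfdp2, and without SGC-CBP30 replicate 2 those of Cep55, Ncapg and Cdc27. The highest adjusted p over the alternatives of these genes ran from 0.0584 for Rhoa to 0.282 for Tfdp2.

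**Figure D5:**
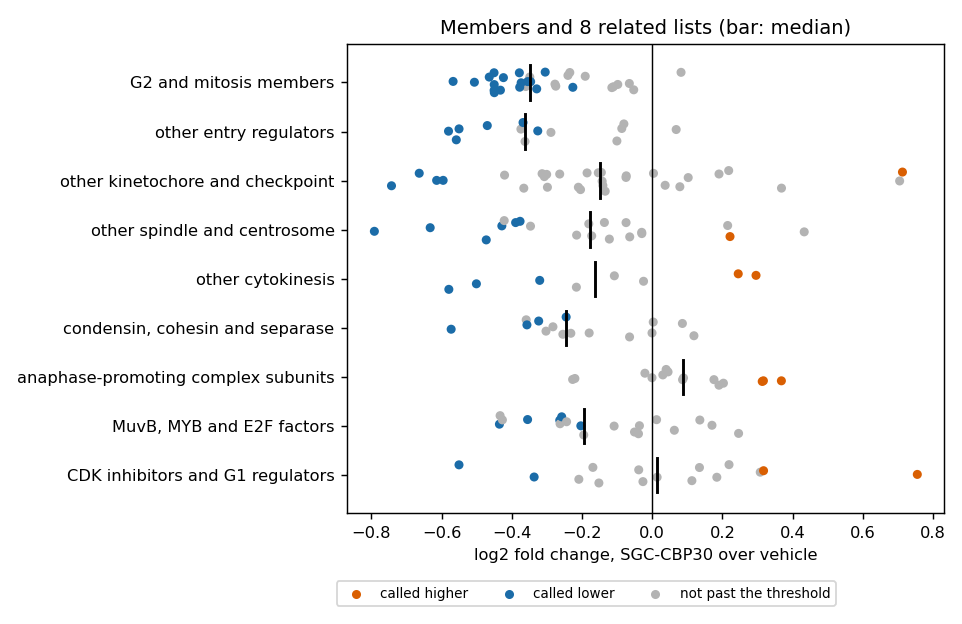
Log2 fold change, SGC-CBP30 over vehicle, for the 30 members and the genes of 8 related lists; each point is a gene, orange called higher, blue called lower, grey not past the threshold, and black bars are medians. The medians are -0.35 for the members and -0.36 for further entry regulators. They are 0.086 for the anaphase-promoting complex list, which includes Fzr1 and Ube2s beside subunits, and 0.014 for CDK inhibitors and G1 regulators.

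Markers of intestinal cell types were read beside these genes, where 16.3% of all genes tested were called lower and 13.6% higher. The counts of single marker lists below are few genes each and are to be read against these shares. The 5 crypt base stem cell markers summed to 199 and 209 CPM in SGC-CBP30 libraries, against 338 and 306 CPM in vehicle libraries, with 2 lower and 1 higher by the test. Olfm4 (log2 fold change -1.79 ± 0.08) and Ascl2 (-0.98 ± 0.24) fell, and Lgr5, the receptor gene that marks these stem cells, rose (0.56 ± 0.10). Olfm4 carried the lower sum: the other 4 markers, set apart after their values were seen, summed to 144 and 153 CPM in SGC-CBP30 libraries, against 134 and 127 CPM in vehicle libraries, the opposite direction. The 7 enterocyte markers summed to 23387 and 22195 CPM in SGC-CBP30 libraries, against 33314 and 33339 CPM in vehicle libraries, with 4 lower and 0 higher. Sis, named after its values were seen, carried most of the lower sum, with 6787 and 7781 CPM against 15129 and 15101 CPM. Lct, Slc5a1 and Fabp2 were also called lower. Alpi (0.09 ± 0.06), Apoa1 (-0.10 ± 0.08) and Fabp1 (-0.26 ± 0.28) were not past the threshold. The 5 goblet cell markers summed to 4032 and 4131 CPM with SGC-CBP30, against 3951 and 3803 CPM with vehicle, with 2 lower and 1 higher. The 5 Paneth cell markers summed to 2953 and 2701 CPM, against 3468 and 3423 CPM, with 2 lower and 0 higher. The 5 enteroendocrine markers summed to 648 and 555 CPM, against 594 and 565 CPM, so their groups overlapped. The 4 tuft cell markers summed to 25.4 and 26.1 CPM, against 32.1 and 34.9 CPM. Each of these 2 lists had 1 lower and 0 higher. The part of these differences in the fall of the mitosis genes was not tested.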

How the data were processed

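Per the file headers, the authors deposited 1 table of the whole series with whole-number counts per gene and library, FPKM, group means (signal values, unused here), and their own log2 fold change with p-value and adjusted p-value, whose test no source used here names. The deposited gene length, in bases, went into the FPKM. Tools in the submitters' processing notes are featureCounts 1.5.0-p3, StringTie 1.3.3b and HISAT2 2.0.5, with the build mm9, but 98.5% of 51477 shared identifiers have GRCm38 coordinates (GENCODE M21), which are used here. No source used here gives strand use or multi-mapping: 9 members share exon bases with a gene on the opposite strand, 6 of them with one above 100 counts over all libraries (Ccna2, Cdc20, Kif20a, Nusap1, Plk1 and Prc1), and Ccnb1 and Ccnb2 have pseudogene copies (44 and 66 counts over all libraries), so these counts are uncertain. The table stops within its last line; the 26144 genes with a count precede that point.

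Each gene's counts went into a robust quasi-likelihood test in edgeR 4.0.16 under R 4.3.3, after filterByExpr and TMM scaling (factors 0.972 to 1.03), of SGC-CBP30 against vehicle without covariate, Benjamini-Hochberg over all 14684 genes, called at 0.05. The SE is the log2 fold change over the square root of F. The fit was tested on simulated data. Alternatives were RLE factors, library totals, DESeq2 1.42.0, no filter, at least 50 counts in 2 libraries, a replicate block and each library left out. Replicates differed beyond counting noise (chi-square per degree of freedom 6.76 for SGC-CBP30 and 3.07 for vehicle). All 30 members may be named, with values in every library for those called, Mki67, Top2a and the 3 nearest to 0; in each related list the 3 called genes of smallest p are named. Ccnb2, Cdk1, Cdc25c, Aurkb, Tpx2 and Kif23 were given values in every library after these were seen. Members and lists were chosen with earlier results of these data known.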

Additional observations from a re-analysis of the deposited data

How the results depend on the processing

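The median log2 fold change of the 30 members was -0.27 with library totals as the scale and ranged from -0.34 to -0.31 with a library left out, against -0.35 on all libraries. The number of members called lower was 11 with DESeq2 and 8 to 17 with a library left out, against 17, and 0 were called higher under any of the 10 alternatives. Over all genes 2397 were called lower and 2004 higher; with library totals the split was 1924 and 2907, DESeq2 called 1817 lower and 1244 higher, and with a library left out 1664 to 2453 were lower and 1235 to 2104 higher, the lowest counts being those without vehicle replicate 1 (1760 and 1236) or 2 (1664 and 1235). Among the members, library totals reversed Mki67 (0.021) and Cenpf (0.0078), and left-out libraries took Mki67 to between -0.19 and 0.068, Cenpf to between -0.13 and 0.017 and Aurkb to between -0.29 and 0.094, none of them called in the main comparison. In 26 members the sign was negative in the main comparison and in all 10 alternatives. The alternatives draw on the same 4 libraries, so their signs are not separate evidence, and the share over all genes was not counted. The cause of these shifts was not tested; fits on 3 libraries hold fewer samples, and a lone library is assumed to vary like the other group. The replicate block called 18 members lower, the added one being Kif23 (edgeR adjusted p = 0.0429), and 2514 genes lower and 2189 higher. Samples of the same number share only a number: their deviations from the group means correlated at -0.024 across genes. Cdc25c and Ndc80 had 39 to 127 counts in a library, and a change of the size seen in Ccnb1 was not detectable in them at this depth.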
